A study of Homo sapiens with 8 samples.

Results

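Reelin signalling was followed through 4 genes: RELN, which encodes the ligand reelin, VLDLR and LRP8, which encode its receptors, and DAB1, which encodes the adaptor inside the cell. They were chosen by name, with the difference of RELN between these arrays already known, and were found on the array through the gene annotation of its probes. The 4 genes have 7 probes among the 50599 probes that are not control spots, and they are 4 of the 21524 genes named. The label holds for these probes by annotation only.

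Total RNA of NGP cells, an established human neuroblastoma line, was measured on 8 one-color Agilent arrays. The first group of 4 arrays is labelled as NGP cells that overexpress CFC1 after transduction of CFC1 cDNA by lentivirus. The other group of 4 is labelled as NGP cells infected with a mock construct, and cells of both groups were selected with puromycin after transduction. CFC1 encodes Cryptic, a co-receptor for Nodal, and the study asked how it affects the transcripts of this line. Whether samples that share a label were grown as separate cultures is not given, so p-values reflect only how much these arrays varied, and that variation may be technical. Whether a group was a clone or a pool of transduced cells is not given either.

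Reelin is a large secreted glycoprotein of the extracellular matrix, made early in brain development by Cajal-Retzius cells of the cortical surface. It binds VLDLR and LRP8, also called ApoER2, which are members of the LDL receptor family. Clustering of these receptors brings DAB1, bound to their cytoplasmic tails, to the Src family kinases FYN and SRC, which phosphorylate it on tyrosine. The pathway is best known for placing migrating neurons in layers, and loss of reelin, of DAB1 or of both receptors disturbs that order in mice.

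Each deposited value is the signal of a probe on a logarithmic scale, read here as log2, relative to a baseline for that probe that is not stated. It gives differences between arrays for a probe and no level, so neither the order of these genes by expression nor the distance from background can be given. A fold below holds only if the logarithm is binary. Every difference subtracts the mean of the 4 mock arrays from that of the 4 arrays labelled CFC1, and intervals are 95% intervals of the linear model.

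The wider comparison set the terms for every count. Many transcripts separated the groups: 57.9% of the 21524 genes and 42.1% of the 50599 probes passed the threshold, an adjusted p under 0.05 in limma. The groups did not overlap for 56.5% of genes and 42.6% of probes. The probe of CFC1 itself was not higher in the group named after it: the arrays labelled CFC1 averaged -0.38 ± 0.33 and the mock arrays 0.42 ± 0.50 (SD, n = 4 each). Its difference was -0.80 (limma adjusted p = 0.0398 over genes and 0.0546, not past the threshold, over probes), and an exact two-sided permutation test gave p = 0.0571, where 0.0286 is the smallest p possible. The limma call over genes was lost without CFC1 replicate 2, 3 or 4 or mock replicate 1 or 2, with adjusted p from 0.061 to 0.0994. A fit with replicate number as a block also lost it (adjusted p = 0.0761), as did quantile normalization (0.0678) and arrays centred on their median (0.0582). Where this probe lies relative to the transduced cDNA is not known, so directions rest on the labels and the groups are called the arrays labelled CFC1 and the mock arrays.

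In the arrays labelled CFC1, 3 of the 4 genes had lower values: RELN by far, VLDLR moderately and DAB1 slightly, while LRP8 was slightly higher. As means of each gene's probes the differences were -5.04 for RELN (SE 0.120), -1.46 for VLDLR (SE 0.126), -0.71 for DAB1 (SE 0.104) and 0.20 for LRP8 (SE 0.032). All 4 genes lay past the threshold of the fit over all genes, where 57.9% did, and 6 of the 7 probes lay past that of the fit over all probes, where 42.1% did. Of the 4 genes, 3 were called lower, as were 28.2% of all genes, and 1 higher, as were 29.7%. Because the genes were chosen with this contrast in view, these counts are a description and no p is given for them. Among all 21524 genes, 0.413% differed more than RELN in absolute size, 11.7% more than VLDLR, 29.5% more than DAB1 and 68.8% more than LRP8. The median absolute difference of a gene was 0.39, so the difference of LRP8 was smaller than that of a typical gene.

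RELN was measured by probes A_24_P309095 and A_33_P3323959, annotated to the same transcript, NM_005045, on chromosome 7. On A_24_P309095 the arrays labelled CFC1 gave 0.00, 0.36, -0.01 and 0.19, and the mock arrays gave 5.62, 5.59, 5.50 and 5.48. Every mock array lay at least 5.12 above every array labelled CFC1. The difference was -5.41 (interval -5.63 to -5.19), a fitted 42.5-fold lower signal.

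On A_33_P3323959 the arrays labelled CFC1 gave 0.28, 0.65, -0.21 and 0.00, and the mock arrays gave 4.84, 4.72, 4.94 and 4.95. The groups were again separate, by 4.07. The difference was -4.68 (interval -5.10 to -4.26), or 25.6-fold lower. The RELN probes thus shared direction and order of size, and the gene mean of -5.04 had rank 6 from the lowest among all genes. The arrays labelled CFC1 spread more than the mock arrays on both probes, with SDs of 0.18 and 0.37 against 0.07 and 0.11. They also lay near the baseline of 0, so the values show a difference between groups and not which group moved. In RNA of whole cultures, fewer cells that express a gene and less of its RNA per cell cannot be told apart.

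VLDLR, a receptor that also takes up triglyceride-rich lipoproteins, was measured by probes annotated to different transcripts, and the probes differed in size. On A_23_P43476, annotated to NM_003383, the arrays labelled CFC1 gave -0.15, 0.02, -0.20 and -0.26, and the mock arrays gave 1.96, 1.92, 1.98 and 2.04. The groups were separate by 1.90. The difference was -2.12 (interval -2.28 to -1.96), or 4.35-fold lower.

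On A_33_P3284925, annotated to NM_001018056, the arrays labelled CFC1 gave 0.06, -0.72, -0.99 and 0.00, and the mock arrays gave 0.52, 0.16, 0.59 and 0.30. The groups were separate by only 0.10. The arrays labelled CFC1 split, with replicates 1 and 4 near the baseline and replicates 2 and 3 below it. The difference was -0.81 (interval -1.41 to -0.20), smaller than on the other VLDLR probe. This probe left the side of the threshold it had in the fit when CFC1 replicate 2 (-0.70) or 3 (-0.61) was left out. The same held without mock replicate 1 (-0.76), 2 (-0.88), 3 (-0.74) or 4 (-0.84), with the replicate number as a block, and after quantile normalization (-0.82). The gene mean of -1.46 therefore describes neither probe.

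LRP8, the receptor most closely tied to synaptic reelin signalling, has a single probe, A_23_P200222, annotated to NM_033300 on chromosome 1. The arrays labelled CFC1 gave 0.20, 0.21, 0.26 and 0.22, and the mock arrays gave 0.07, 0.01, 0.00 and 0.01. The arrays of each group lay within 0.07 of each other, and the groups were separate by 0.14. The difference was 0.20 (interval 0.11 to 0.30), or 1.15-fold higher, the smallest of the 4 genes in size. It was 0.44 after quantile normalization and 0.24 with arrays centred on their median. In the fit over all probes with centred arrays it no longer lay past the threshold.

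DAB1, the adaptor that carries the signal inward, had a lower mean on both of its probes, and 1 of them passed the threshold. On A_33_P3375334, annotated to ENST00000371230, the arrays labelled CFC1 gave -0.39, -0.29, 0.14 and -0.25, and the mock arrays gave 0.17, 0.71, 1.18 and 1.34. The mock arrays ranged over 1.17, and the lowest of them lay 0.03 above the highest array labelled CFC1. The difference was -1.05 (interval -1.67 to -0.42).

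On A_23_P23850, annotated to NM_021080, the arrays labelled CFC1 gave -0.04, 0.32, -0.05 and -0.10, and the mock arrays gave 0.58, 0.53, 0.31 and 0.18. The groups overlapped, because CFC1 replicate 2 lay above mock replicates 3 and 4. The difference was -0.37 (interval -0.67 to -0.07), and this was the only one of the 7 probes not past the threshold. It was -0.47 without CFC1 replicate 2 and -0.44 without mock replicate 4, past the threshold in each case, as it was with the replicate number as a block. After quantile normalization it was -0.14, and the gene mean of DAB1 was then -0.47 in place of -0.71. From mock replicate 1 to 4 the values rose on A_33_P3375334 and fell on A_23_P23850, which a mean of the probes evens out. The SE of the gene mean, 0.104, lay below those of both probes, 0.264 and 0.129. The groups did not overlap for the gene mean, although they did on A_23_P23850. The gene mean of DAB1 therefore describes neither probe.

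**Figure D1:**
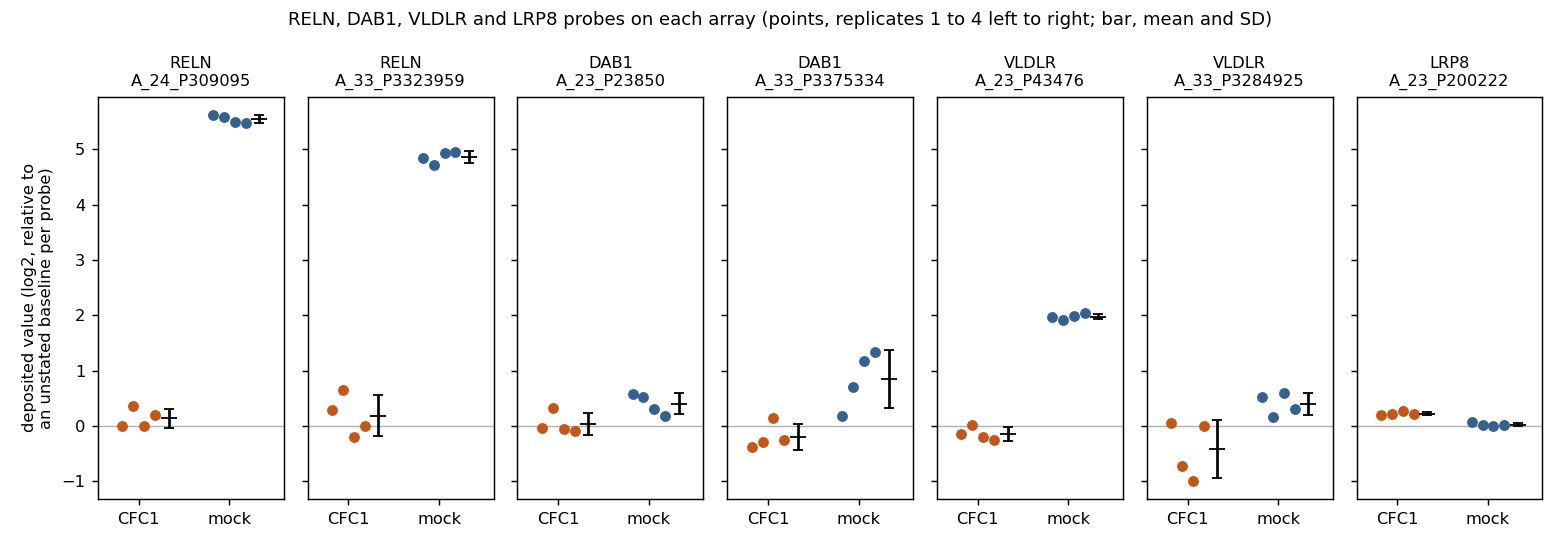
Deposited log2 values relative to each probe's unstated baseline (y axis) of the 7 RELN, DAB1, VLDLR and LRP8 probes, with the 4 arrays labelled CFC1 left of the 4 mock arrays in each panel. Points are arrays in order of replicate number, and bars show mean and SD. The RELN groups lie 5.12 and 4.07 apart, and only DAB1 probe A_23_P23850 has groups that overlap.

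The order of the genes by size of difference was kept under each scaling, but DAB1 and LRP8 were nearly equal after quantile normalization. In the comparison of deposited values, quantile-normalized values and arrays centred on their median, each of the 7 probes kept its direction. The gene differences under quantile normalization were -4.79 for RELN, -1.24 for VLDLR, -0.47 for DAB1 and 0.44 for LRP8. The median difference of all genes was -0.086 as deposited and 0.009 after quantile normalization. Against that median LRP8 stood apart slightly more, and DAB1 slightly less, than its value alone shows.

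**Figure D2:**
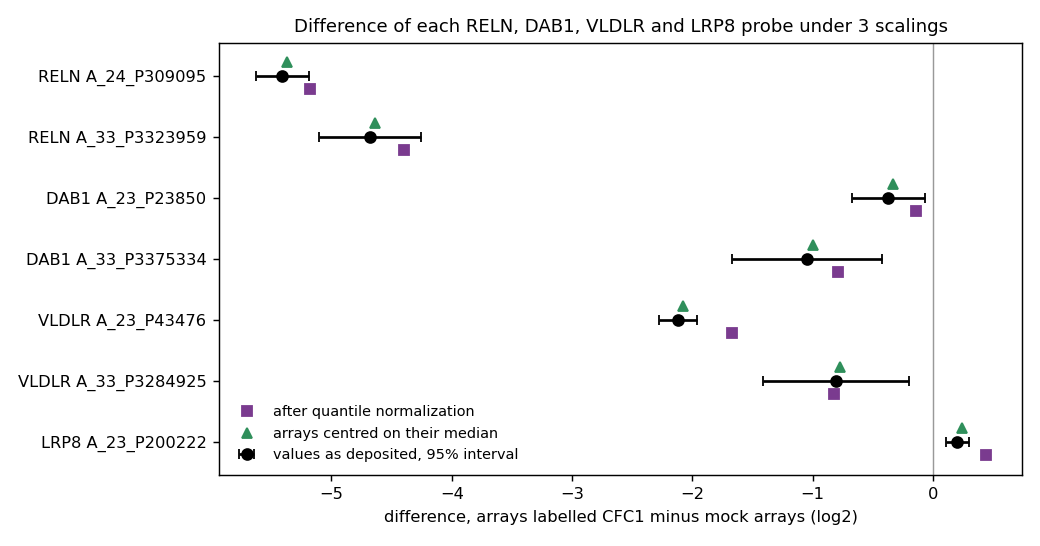
Difference of each probe, arrays labelled CFC1 minus mock arrays, on the log2 scale (x axis) for values as deposited with 95% intervals (circles), after quantile normalization (squares) and with arrays centred on their median (triangles), n = 4 arrays per group. RELN probes lie between -5.41 and -4.40, and LRP8 between 0.20 and 0.44.

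The promoters of RELN and VLDLR are shown because these are the members with the largest differences, both lower in the arrays labelled CFC1. They are the 250 bases before the annotated start, from RefSeq on GRCh38.p14, read 5′ to 3′ on the strand of the gene, with each CG dinucleotide in capitals. RELN lies on the minus strand (chr7:103989659-103989908) and VLDLR on the plus strand (chr9:2621537-2621786).
RELN promoter: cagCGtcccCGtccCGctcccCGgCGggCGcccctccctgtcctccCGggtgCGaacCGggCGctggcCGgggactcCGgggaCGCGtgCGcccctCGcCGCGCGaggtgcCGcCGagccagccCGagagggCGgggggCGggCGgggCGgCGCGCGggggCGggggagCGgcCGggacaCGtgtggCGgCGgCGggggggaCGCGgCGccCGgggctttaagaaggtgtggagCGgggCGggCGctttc
VLDLR promoter: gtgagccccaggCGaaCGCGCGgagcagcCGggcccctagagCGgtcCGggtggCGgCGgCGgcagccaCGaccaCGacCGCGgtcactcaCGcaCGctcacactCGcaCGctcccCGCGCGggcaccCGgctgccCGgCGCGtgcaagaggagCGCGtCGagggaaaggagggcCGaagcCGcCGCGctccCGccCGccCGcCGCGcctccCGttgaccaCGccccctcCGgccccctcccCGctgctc

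The RELN window held 43 CG dinucleotides and the VLDLR window 41, against a median of 11 over 35116 RefSeq promoter windows of the same length. Of those windows, 1.02% held at least as many as RELN and 1.73% at least as many as VLDLR. The LRP8 window held 31 (10.9% held as many), and the 6 windows listed for DAB1 held 12 to 41. The letters GGGCGG, the core of a GC box, were searched on both strands. With overlapping copies counted, they stood 6 times in the RELN window, 2 times in the VLDLR window and 3 times in the LRP8 window, where 42.6% of all windows held them. CACGTG, the palindromic E-box, stood in the RELN window and in 6.34% of all windows, and TATAAA in none of the RELN, VLDLR and LRP8 windows and in 10.7% of all. Both GGGCGG and CACGTG contain a CG and so count among the capitals. A match is a description of the letters, and no methylation or binding was measured here.

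Measured neighbours along the chromosome did not share the difference of RELN. Of the 10 measured genes on each side of RELN, 8 rose, 8 fell and 4 did not pass, and 57.9% of all genes passed. Their median difference was -0.12 and the lowest was -1.37, that of NAPEPLD, an enzyme that makes N-acylethanolamines (limma adjusted p = 3.77e-07). The highest was LHFPL3-AS2, an RNA antisense to LHFPL3 by its name, at 3.82 (limma adjusted p = 3.91e-08). RELN at -5.04 thus lay below every one of these 20 neighbours.

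VLDLR had an adjacent measured neighbour that was also lower, and by more. Of its 20 neighbours 3 rose, 4 fell and 13 did not pass, with a median of -0.14. VLDLR-AS1, annotated as RNA antisense to VLDLR and named here after its value was seen, is the nearest measured gene before it. The mean of its 4 probes was -0.08, -0.07, -0.38 and -0.15 in the arrays labelled CFC1, and 2.74, 2.59, 2.62 and 2.78 in the mock arrays. The groups were separate by 2.67 and the gene fell by 2.85 (SE 0.082, limma adjusted p = 6e-08), with its probes from -3.28 to -2.41. Whether its probes and those of VLDLR detect each other's RNA was not tested. LOC101930053, the next measured gene and also named after its value was seen, fell by 2.56. SMARCA2, a chromatin remodelling ATPase beside them, rose by 3.60, and SLC1A1, a glutamate transporter, rose by 4.92, the largest differences of these 20 genes.

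DAB1 and LRP8 lie on chromosome 1. Of the 20 neighbours of DAB1, 5 rose, 3 fell and 12 did not pass, with a median of 0.00. CYP2J2, a cytochrome P450 that acts on arachidonic acid, rose by 3.34 and HOOK1, a microtubule-linked adaptor, rose by 2.65. Of the 20 neighbours of LRP8, 10 rose, 2 fell and 8 did not pass, with a median of 0.22, close to the 0.20 of LRP8. ZYG11A rose by 4.29 and ECHDC2 fell by 1.32. The other lower gene was GLIS1 (-0.18, limma adjusted p = 0.0255), named after its value was seen. Its call was lost with arrays centred on their median (-0.14) and after quantile normalization, where it was 0.04, and without CFC1 replicate 1, 2 or 3 or mock replicate 1, 3 or 4. The count of lower neighbours was 1 in place of 2 without CFC1 replicate 1, 2 or 3 or mock replicate 1 or 3.

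**Figure D3:**
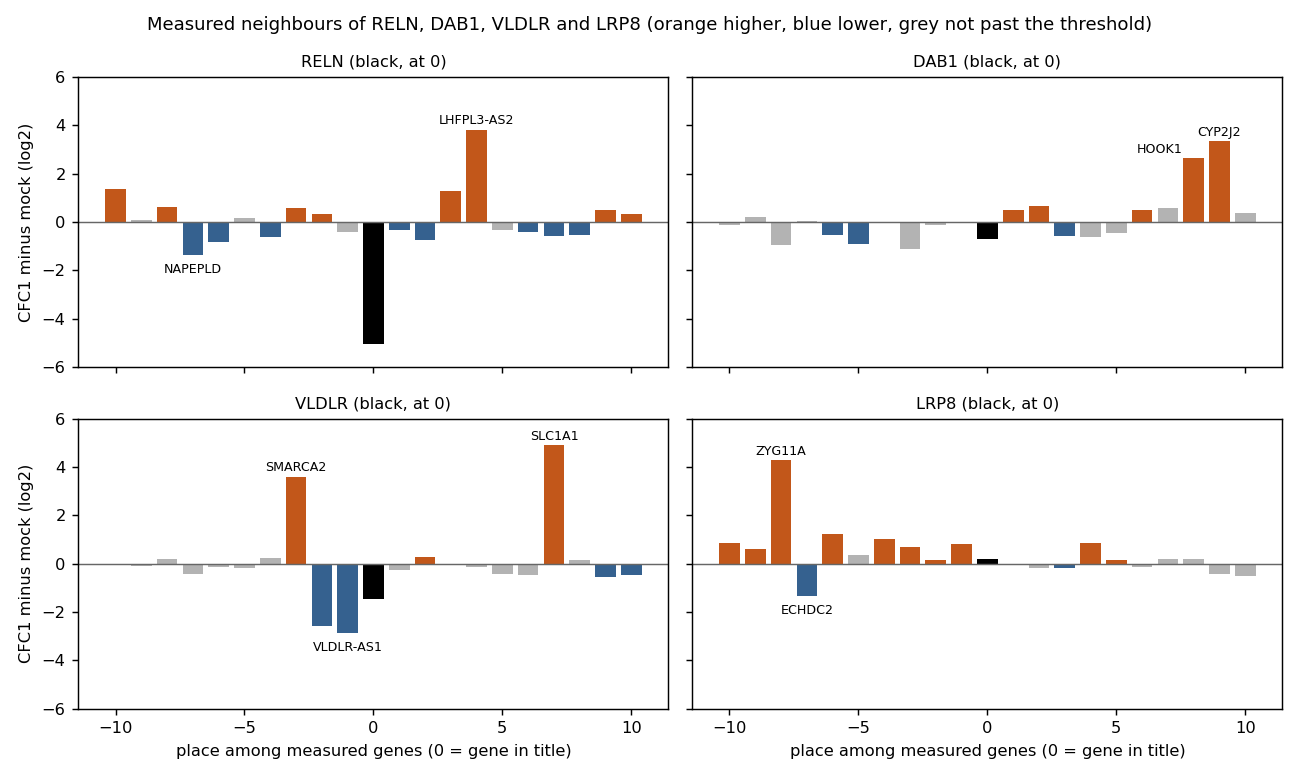
Difference of gene values, arrays labelled CFC1 minus mock arrays, on the log2 scale (y axis) for the 10 nearest measured genes on each side of RELN, DAB1, VLDLR and LRP8 (x axis, place in gene order). Black bars are the 4 genes, orange and blue bars passed an adjusted p of 0.05 in limma. RELN at -5.04 lies below all its neighbours, and VLDLR-AS1 lies at -2.85 beside VLDLR.

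The genes with array profiles most like each member were ranked by the root mean square difference of gene values over the 8 arrays. For RELN these were AVIL (0.171), an actin-binding protein of the villin family, EPAS1 (0.201), a hypoxia-inducible factor, and LIX1 (0.204). Only 4 genes lay within 0.25 of RELN. For VLDLR they were CHRFAM7A (0.131), TDRD12 (0.146) and ZNF385A (0.161), with 75 genes within 0.25. For DAB1 they were COL27A1 (0.093), CNTNAP3B (0.101) and ZC3H10 (0.106), with 1193 genes within that distance. For LRP8 they were IFIT5 (0.0204), PPP3CA (0.0246) and CCDC47 (0.0276), with 3324 genes. This distance depends on the size of the group difference, so small differences have many close profiles. It also depends on the unstated baseline of each probe. A gene with the same differences between arrays but another baseline would not count as close.

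The rest of the pathway was followed in 13 lists by role, holding 150 genes, of which 141 are analysed here. Of these, 47 rose and 54 fell, and 71.6% passed where 57.9% of all genes did. Their median difference was -0.06, against -0.086 for all genes. The lists were chosen with earlier results of these data known, so these shares are a description only. Members of most lists moved in both directions, and no list as a whole was tested. Verbs of change below are used for genes with an adjusted p under 0.05 in limma over all genes.

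Among 10 other ligands of the receptors, 4 rose and 2 fell, with a median of 0.08. PROC, the protease zymogen protein C, rose by 3.55 (SE 0.098), and LPL, the lipase that binds VLDLR, rose by 2.51 (SE 0.210). THBS2, a matrix thrombospondin, rose by 1.92, but its probes stood at -0.12 and 3.97. SELENOP, a selenium carrier taken up through LRP8, fell by 1.77 (SE 0.158). APOE, a lipoprotein ligand of both receptors and outside the rule for naming, fell by 1.13.

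Of 12 co-receptors and partners at the membrane, 7 fell, 4 rose and 1 did not pass, with a median of -0.32. NRP1, neuropilin-1, had 0.21, 0.31, 0.11 and 0.04 in the arrays labelled CFC1 and 2.78, 2.70, 2.71 and 2.65 in the mock arrays. It fell by 2.54 (SE 0.065). EPHB1, an Eph receptor kinase, fell by 2.11 (SE 0.143), and EFNB2, an ephrin-B ligand, by 1.30, or -0.85 after quantile normalization. ITGA3, the integrin alpha chain that pairs with beta 1, rose by 1.89 (SE 0.227).

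Of the 11 other members of the LDL receptor family, 5 fell, 1 rose and 5 did not pass, with a median of -0.09. LRP1B fell by 1.29 (SE 0.259) and LRP4, the agrin receptor of the neuromuscular junction, by 1.08 (SE 0.054). SORL1, a sorting receptor, fell by 0.36 and LRP1 by 0.26. Of 8 genes of receptor folding, trafficking and turnover, 3 rose and 3 fell. MYLIP, the ubiquitin ligase IDOL that sends VLDLR and LRP8 to degradation, fell by 1.33 (SE 0.044). NUMB, an endocytic adaptor, fell by 0.73 and MESD, a chaperone of the family, by 0.54, or -0.25 after quantile normalization. SNX17, a sorting nexin that recycles these receptors, rose by 0.58.

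Of 9 genes for proteases that cut reelin, related proteases and inhibitors, 4 fell and 2 rose, with a median of -0.23. ADAMTS2 fell by 2.75 (SE 0.140), with -0.21 to 0.40 in the arrays labelled CFC1 against 2.83 to 2.98 in the mock arrays. ADAMTS4 fell by 1.90, with probes at -2.40 and -1.40. ADAMTS3, the main reelin-inactivating protease of the mouse cortex, fell by 1.11, or -1.88 after quantile normalization. ADAMTS5 rose by 2.66 (SE 0.056). Proteases of the same family thus stood on both sides.

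Of 11 kinases that act on DAB1 and partners or adaptors linked to it, 5 rose and 3 fell, with a median of 0.13, and 3 rose without CFC1 replicate 4 or mock replicate 2. YES1, a Src family kinase, had -0.07, 0.00, -0.21 and -0.16 in the arrays labelled CFC1 and -3.31, -3.23, -3.37 and -3.46 in the mock arrays. It rose by 3.23 (SE 0.067). FYN, outside the rule for naming, fell by 0.32, a call that was lost after quantile normalization (-0.11, adjusted p = 0.289) and with arrays centred on their median (-0.28, adjusted p = 0.0531). The small GTPases RAP1A and RAP1B moved oppositely, RAP1A rising by 1.17 (SE 0.045) and RAP1B falling by 1.78 (SE 0.038). CRKL, an adaptor that binds phosphorylated DAB1, fell by 0.39, and this call was lost after quantile normalization (-0.13, adjusted p = 0.177). Of 10 genes of DAB1 turnover, 5 rose and 3 fell, with a median of 0.29. ARIH2, a ubiquitin ligase that works with cullin 5, rose by 1.42, and ELOB, an elongin of the same complex, by 1.29. UBE2F, a NEDD8-conjugating enzyme, rose by 0.85, and SOCS1 fell by 1.16.

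Of 14 genes of the PI3K, AKT, GSK3 and tau arm, 7 fell and 3 rose, with a median of -0.25. PIK3R1, a regulatory subunit of PI3K, fell by 1.27 (SE 0.033). MTOR fell by 0.85 and PIK3R3 by 0.73, and stood at -0.42 and -0.36 after quantile normalization. PIK3CD, a catalytic subunit, rose by 1.84 as the mean of probes at 0.19 and 3.50. Of 12 genes of the LIS1 complex and microtubule motors, 6 rose and 4 fell, with a median of 0.16. DYNC1I1, a dynein intermediate chain, fell by 2.87 (SE 0.070), or -4.38 after quantile normalization. DCX, doublecortin, fell by 2.42 (SE 0.029), with 0.02 to 0.05 in the arrays labelled CFC1 and 2.45 to 2.50 in the mock arrays. PAFAH1B2, a subunit partner of LIS1, rose by 1.44, and NDE1, a LIS1-binding protein, by 0.57.

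Of 13 genes of the actin and adhesion arm, 6 fell and 5 rose, with a median of -0.11. CDH2, N-cadherin, rose by 1.26 (SE 0.046), while CTNND1, p120 catenin, fell by 1.12 and ITGA5 by 1.08. NECTIN1 fell by 0.81, or -0.39 after quantile normalization. Of 9 glutamate receptor partners, 3 rose and 3 fell, with a median of -0.23. The AMPA receptor subunits GRIA2 and GRIA3 were lower, as GRIA2 fell by 3.24 (SE 0.035) and GRIA3 fell by 2.63 (SE 0.141). The NMDA receptor subunits GRIN2D and GRIN1 rose by 3.52 (SE 0.044) and 1.76 (SE 0.193). Outside the rule for naming, GRIA1 fell by 0.84, a call that was lost without CFC1 replicate 1, 2 or 3 or mock replicate 1, 3 or 4. The NMDA receptor subunits GRIN2A (-0.23) and GRIN2B (-0.77) did not pass, and GRIN2B was 0.52 without mock replicate 3.

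Of 12 genes of DNA methylation and of RELN promoter control, 5 fell and 3 rose, with a median of -0.01. DNMT3A, a de novo DNA methyltransferase, fell by 1.30 (SE 0.053) with its 3 probes from -1.34 to -1.28. PAX6, a transcription factor, fell by 1.11, or -0.74 after quantile normalization, and its 4 probes ran from -1.85 to 0.42. TET1, which oxidises methylcytosine, rose by 0.56 and REST, a repressor of neuronal genes, by 0.50. Among the genes named by the rule in these lists, the 4 past the threshold with the largest absolute difference in each, the adjusted p was 0.00318 or less, in limma over all genes.

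**Figure D4:**
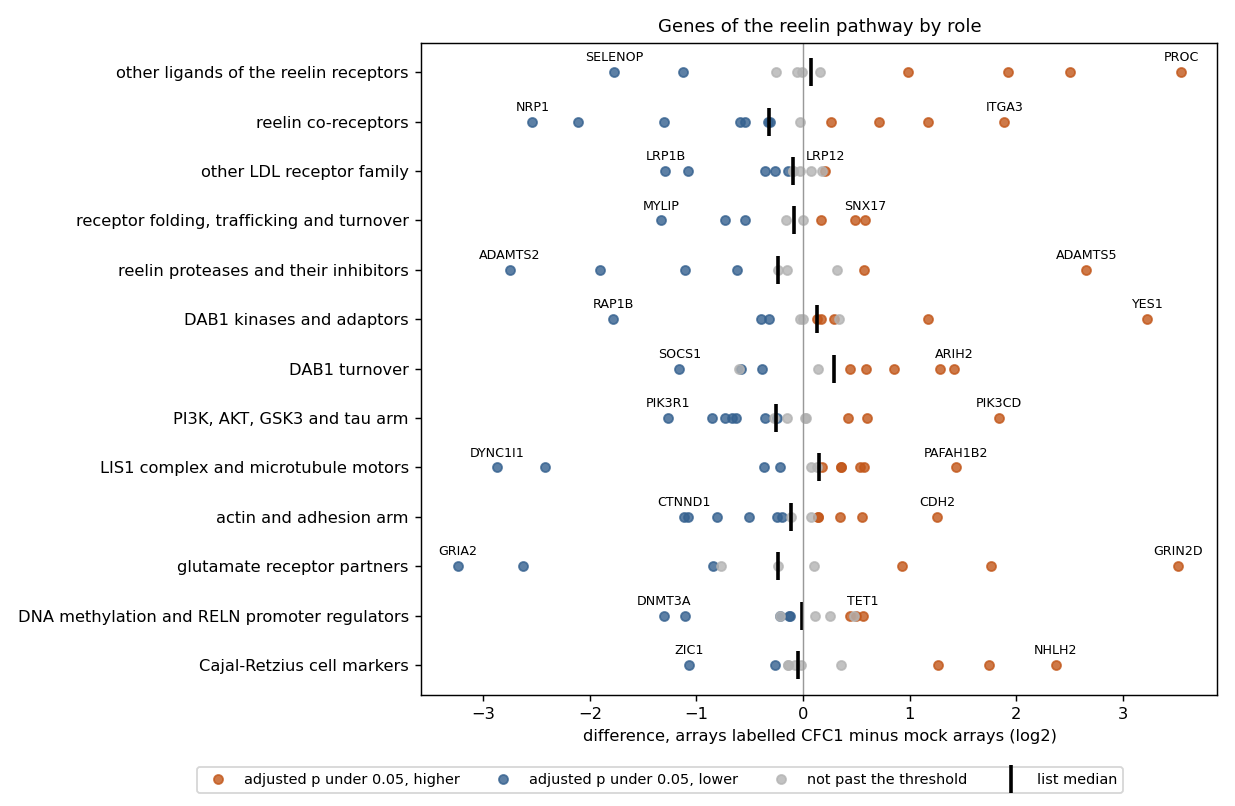
Difference of each measured gene, arrays labelled CFC1 minus mock arrays, on the log2 scale (x axis) in 13 lists by role (y axis), n = 4 arrays per group. Orange and blue points passed an adjusted p of 0.05 in limma, grey points did not, black ticks are list medians, and the lowest and highest gene of each list is named. Medians lie between -0.32 and 0.29.

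Markers of Cajal-Retzius cells, of the line's own lineage and of other cell types were counted beside the reelin genes. For comparison with each count, 28.2% of all genes were called lower and 29.7% higher. Of 10 markers of Cajal-Retzius cells, the reelin-secreting neurons, 3 rose, 2 fell and 5 did not pass, with a median of -0.04. The transcription factors NHLH2 (2.37, probes at 0.64 and 4.11) and LHX1 (1.27) rose, as did the chemokine receptor CXCR4 (1.75). ZIC1 fell by 1.07, or -0.64 after quantile normalization. TP73, outside the rule for naming, fell by 0.26 (limma adjusted p = 0.0137), with probes at -0.30 and -0.22. CALB2 (-0.14), LHX5 (-0.14), EBF3 (-0.07), BARHL2 (-0.02) and EBF2 (0.36), also outside it, did not pass. Of 11 neuroblastoma and sympathoadrenal markers 8 fell and 1 rose, with a median of -0.62. DDC, which makes dopamine, fell by 2.51, CHGB, a granin, by 2.48, ISL1 by 2.18 and GATA2 by 1.66, or -1.08 after quantile normalization. Outside the rule for naming, MYCN rose by 0.16, and PHOX2A (0.02) and TH (0.07) did not pass. No marker of this list rose after quantile normalization or with arrays centred on their median. The mean of those 11 markers lay between -0.10 and 0.01 in the arrays labelled CFC1 and between 0.94 and 1.02 in the mock arrays. As the values hold no level, presence of the labelled cell type cannot be read from them.

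Of 8 fibroblast and mural markers 7 fell, with a median of -1.29 and array means from -0.14 to -0.02 in the arrays labelled CFC1 and from 1.36 to 1.45 in the mock arrays. RGS5 fell by 3.83, PDGFRA by 2.78, COL3A1 by 1.88, or -1.25 after quantile normalization, and COL1A1 by 1.44. COL1A2 (-0.05), outside the rule for naming, did not pass. Also outside it, DCN fell by 1.13 with probes at -2.10 and -0.17, PDGFRB by 0.46 and LUM by 0.28. Of 6 Schwann and glial markers 4 fell, with array means from -0.40 to 0.11 in the arrays labelled CFC1 and from 0.17 to 0.54 in the mock arrays. S100B fell by 1.35 with probes at -2.55 and -0.15, GFAP fell by 0.90 and SOX10 by 0.88. FABP7 fell by 1.17, a call that was kept without mock replicate 3 and lost without each of the other arrays in turn (-1.23 to -0.96). CDH19 (0.65) and ERBB3 (0.08, probes from -0.33 to 0.61), outside the rule for naming, did not pass. Of 6 endothelial markers 2 passed, where KDR fell by 3.08 and TEK fell by 2.89, with array means from -0.18 to 0.21 in the arrays labelled CFC1 and from 0.87 to 1.24 in the mock arrays. Outside the rule for naming, PECAM1 (-0.11), CDH5 (0.08), VWF (-0.14) and CLDN5 (-0.39) did not pass. In the mock arrays KDR averaged 3.03 and TEK 3.46, while PECAM1, CDH5, VWF and CLDN5 averaged between -0.05 and 0.10. These means are relative to the unstated baseline of each probe, so they do not compare levels between genes. Without mock replicate 3, 4 endothelial markers fell. Among 5 immune markers, CD68 fell by 0.42 and CD14 rose by 1.16, with array means from -0.25 to 0.13 in the arrays labelled CFC1 and from -0.06 to 0.12 in the mock arrays. CD68 did not pass after quantile normalization (-0.22, adjusted p = 0.404), with centred arrays, or without CFC1 replicate 1, 2 or 4 or mock replicate 1, 3 or 4. Which markers were near 0 in level cannot be said from relative values, and the part of these markers in the differences of the reelin genes was not tested.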

How the data were processed

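Deposited log2 values of 8 arrays were used, 4 labelled CFC1 and 4 mock, as a table of 50739 rows made by the authors. Per the labels, RNA was labelled with Cyanine3 for one-color Agilent arrays. How the authors extracted, corrected and scaled the signals, and which base of logarithm they used, is not given in the sources used here. Values lie between -13.0 and 9.81. No probe has all 8 arrays on the same side of 0, and array medians run from -0.144 to 0.138. Precision is limited by the number of arrays, and there are no background flags.

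Without the 140 control spots, 31993 of 50599 probes had 1 gene symbol in the table used. The other 18606 had none or more than 1 and were given no gene. Symbols were updated through the RefSeq gene table of GRCh38.p14 (28419 through accession, 3072 through symbol, 480 through synonym, 22 kept). A gene value is the mean of its probes. Probes and genes were fitted separately in R 4.3.3 with limma 3.58.1 (linear model and empirical Bayes, no trend, no block), two-sided, with Benjamini-Hochberg adjustment over all probes or all genes and a threshold of 0.05. The fitting code was run on simulated gene values, with known changes added to a small share of genes and independent noise. That run checks the code only, as far more genes differed here. It does not bear on whether the arrays were separate cultures. Tables and figures used Python 3.11.15, pandas 2.3.3 and matplotlib 3.10.9.

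The members, gene lists and tests were chosen with earlier results of these data known. Named are the members, CFC1, up to 4 genes of each list past the threshold with the largest absolute difference, the 3 nearest profiles of each member without uncharacterised symbols, and up to 2 neighbours past the threshold of each member. Exceptions are marked in the text. Alternatives were median centring, quantile normalization, a block for replicate number, a variance trend, the median of probes, and leaving out each array.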

Additional observations from a re-analysis of the deposited data

Results flagged for a closer look

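A far array was looked for in 24 groups of 4 arrays: the member probes, the gene means, CFC1 and VLDLR-AS1. The gap of the extreme array to the next was set against the range of its group, and chance alone marks about 1 in 20 groups. On DAB1 probe A_23_P23850, CFC1 replicate 2 stood at 0.32 while the other arrays labelled CFC1 lay between -0.10 and -0.04. Without that array the difference was -0.47 in place of -0.37. For the mean of the RELN probes, mock replicate 2 stood at 5.15 and the other mock arrays at 5.22 to 5.23. Without it the difference was -5.06 in place of -5.04.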

How the results depend on the processing

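With 13 alternatives, the 4 gene differences and 7 probe differences kept their direction, and 77 of 85 other genes named for their difference kept direction and side of the threshold. The exceptions were CFC1, CD68, CRKL, FABP7, FYN, GLIS1, GRIA1 and GRIN2B. Of these, GLIS1 turned to 0.04 after quantile normalization and GRIN2B, which had not passed, ran from -1.27 to 0.52 when 1 array was left out. MYCN, PHOX2A, TH, PECAM1, CDH5, VWF and CLDN5 were not among the 85. Neither were TP73, CALB2, LHX5, EBF2, EBF3, BARHL2, COL1A2, PDGFRB, LUM, DCN, CDH19 and ERBB3. Quantile normalization moved the gene differences of RELN, DAB1, VLDLR and LRP8 to -4.79, -0.47, -1.24 and 0.44. It moved the RELN probes to -5.18 and -4.40, DAB1 A_23_P23850 to -0.14, VLDLR A_23_P43476 to -1.67 and LRP8 A_23_P200222 to 0.44. It also changed counts past the threshold: 2 higher in the other LDL receptor family, 1 lower among DAB1 kinases and adaptors, 3 lower among DNA methylation and RELN promoter regulators, 0 higher among neuroblastoma markers, 0 lower among immune markers and 1 lower among neighbours of LRP8. Centring arrays on their median gave 0.24 for LRP8, as gene and probe. It gave 3 higher in the actin and adhesion arm, 2 lower among promoter regulators, 1 lower among Cajal-Retzius markers, 0 higher among neuroblastoma markers, 0 lower among immune markers and 1 lower among neighbours of LRP8. The cause was not tested.

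Leaving out 1 array gave 0 to 1 lower immune markers, 1 to 2 lower neighbours of LRP8, 3 to 5 higher DAB1 kinases and adaptors, and 2 to 4 lower endothelial markers. Member probes past the threshold numbered 5 to 6 in these fits, and 5 after quantile normalization or centring. Same-numbered arrays of the groups correlated in their deviations from the group means by 0.132, 0.197, 0.095 and 0.173, and each array correlated best with its own number, a hint from the data and not the design. With the replicate number as a block, 13200 genes passed in place of 12456, and 6 member probes, DAB1 A_23_P23850 entering and VLDLR A_33_P3284925 leaving. The median of probes gave 12381 genes and the variance trend 12478. No flags of signal over background were at hand, so how near background the dimmer group lay is unknown.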
